A study of Mus musculus with 78 samples.

Results

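The enzymes of the hexosamine pathway Gfpt1, Gfpt2, Gnpnat1, Uap1 and Ogt were followed in the lungs of mice that slept or were kept awake from lights on. The 5 members were chosen by gene symbol, with earlier results of these arrays known, from 18820 genes with a probe set annotated to 1 symbol. Where a gene has several such probe sets, the one selected on the highest mean level over all 78 arrays stood for it, but each member had 1, so this step decided nothing. The earlier results included the difference between the states over all hours and the trend over sleep, so these 2 measures are given as a description with no test, and the tests at single hours are not independent of the choice.

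Total RNA of whole lung was hybridised to Affymetrix Mouse Gene ST arrays, with 1 mouse on each. All mice were male C57BL/6J, labelled C57BL\6, about 10 weeks old, and were fed only in the dark phase. The baseline group of 9 mice was killed at lights on, at 0 h. Sleep-deprived mice were kept awake by gentle handling and killed at 3, 6, 9 and 12 h (9, 9, 9 and 8 mice), and sleeping mice left undisturbed were killed at the same hours (9, 7, 9 and 9 mice). Handling and loss of sleep cannot be told apart in this design. Levels are log2 intensities, so that a difference of 1 is a doubling, and levels of different probe sets cannot be set against each other. Each mouse is 1 replicate.

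The hexosamine pathway draws fructose 6-phosphate from glycolysis, adds nitrogen from glutamine and an acetyl group, and ends in UDP-GlcNAc, the activated sugar used to build glycans and to modify proteins inside the cell. Its first step, by Gfpt1 or Gfpt2, is held to limit the flow. Gnpnat1 acetylates glucosamine 6-phosphate, Uap1 joins the sugar to UDP, and Ogt moves it onto serines and threonines of nuclear and cytosolic proteins. In mouse heart the transcription factor Xbp1 of the unfolded protein response is known to raise enzymes of this pathway.

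Several properties of the arrays touched the results below. The lung label fitted the markers of alveolar type 2 cells, whose mean of 5 genes lay between 12.17 and 12.45 on every array. Markers of neighbouring tissue varied far more, from 6.49 to 11.08 for the mean of 5 fat genes and from 5.24 to 12.75 for the mean of 4 liver genes. In whole lung, fewer cells of a type and less RNA per cell cannot be told apart. When the order of conditions is laid along the array numbers, 15 arrays fall on another condition than their label, and all 15 were nearest to the condition of their number over 200 probe sets, against 59 of the other 62 arrays nearest to their own group. Array 81 is out of order. Mice were used as labelled, and results are also given without these 16 arrays. The labels name no batch. The array numbers were cut into 4 runs by the way the conditions repeat along them, with array 81 placed in run 1. Baseline mice sit in run 3, the mice of 3 and 6 h in runs 3 and 4, and those of 9 and 12 h in runs 1 and 2, so that run and group cannot be told apart where baseline is set against 9 or 12 h. Splitting run 3 at array 52 gives 5 runs. The sleep-deprived mice of run 3 then lie before the split and its sleeping mice after it. State and part cannot be told apart within run 3.

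The promoters of Gfpt1, Gfpt2 and Uap1 are shown because Gfpt1 and Uap1 moved together from mouse to mouse and Gfpt2 differed most between the states. Each is the 250 bases before the start in RefSeq annotation of GRCm38.p6, 5′ to 3′ on the strand of the gene, with the GC box GGGCGG or its reverse complement in capitals. They lie at chr6:87042596-87042845 on the plus strand (Gfpt1), chr11:49793905-49794154 on the plus strand (Gfpt2) and chr1:170174965-170175214 on the minus strand (Uap1).
Gfpt1: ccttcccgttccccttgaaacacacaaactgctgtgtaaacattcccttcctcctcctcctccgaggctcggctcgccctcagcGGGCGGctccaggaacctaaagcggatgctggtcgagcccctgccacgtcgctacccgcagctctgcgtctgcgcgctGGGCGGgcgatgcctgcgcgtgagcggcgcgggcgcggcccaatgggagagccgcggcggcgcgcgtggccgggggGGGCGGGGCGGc
Gfpt2: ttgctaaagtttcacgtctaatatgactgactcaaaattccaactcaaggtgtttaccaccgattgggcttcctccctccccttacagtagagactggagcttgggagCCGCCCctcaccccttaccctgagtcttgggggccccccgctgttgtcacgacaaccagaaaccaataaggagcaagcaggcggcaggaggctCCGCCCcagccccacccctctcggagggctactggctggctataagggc
Uap1: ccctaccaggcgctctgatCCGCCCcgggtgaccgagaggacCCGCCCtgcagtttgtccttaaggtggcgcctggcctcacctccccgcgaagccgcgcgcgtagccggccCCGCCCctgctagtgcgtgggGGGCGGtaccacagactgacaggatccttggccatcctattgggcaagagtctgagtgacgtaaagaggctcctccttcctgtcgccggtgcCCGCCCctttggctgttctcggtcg
GC made up 72% of the Gfpt1 bases, 67.2% of those of Uap1 and 57.6% of those of Gfpt2, against a median of 52.4% over 32851 promoter windows. The search covered both strands of the 300-base windows, from 250 bases before to 50 after the start, for the 4 members with a window, which are these 3 and Ogt. The GC box was in all 4 and in 35.7% of all windows. None of the 4 held the endoplasmic reticulum stress element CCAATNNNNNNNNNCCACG (0.119% of all windows), its second form ATTGGNCCACG (0.0365%), the Xbp1 site TGACGTGG (0.676%), the cAMP element TGACGTCA (1.79%), the amino acid response element TGATGNAAT or TGATGAAAC (1.21%), the heat shock element GAANNTTCNNGAA or TTCNNGAANNTTC (0.603%) or the E-box CACGTG (7.15%). These are letters in a window and say nothing of what binds there.

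**Figure D1:**
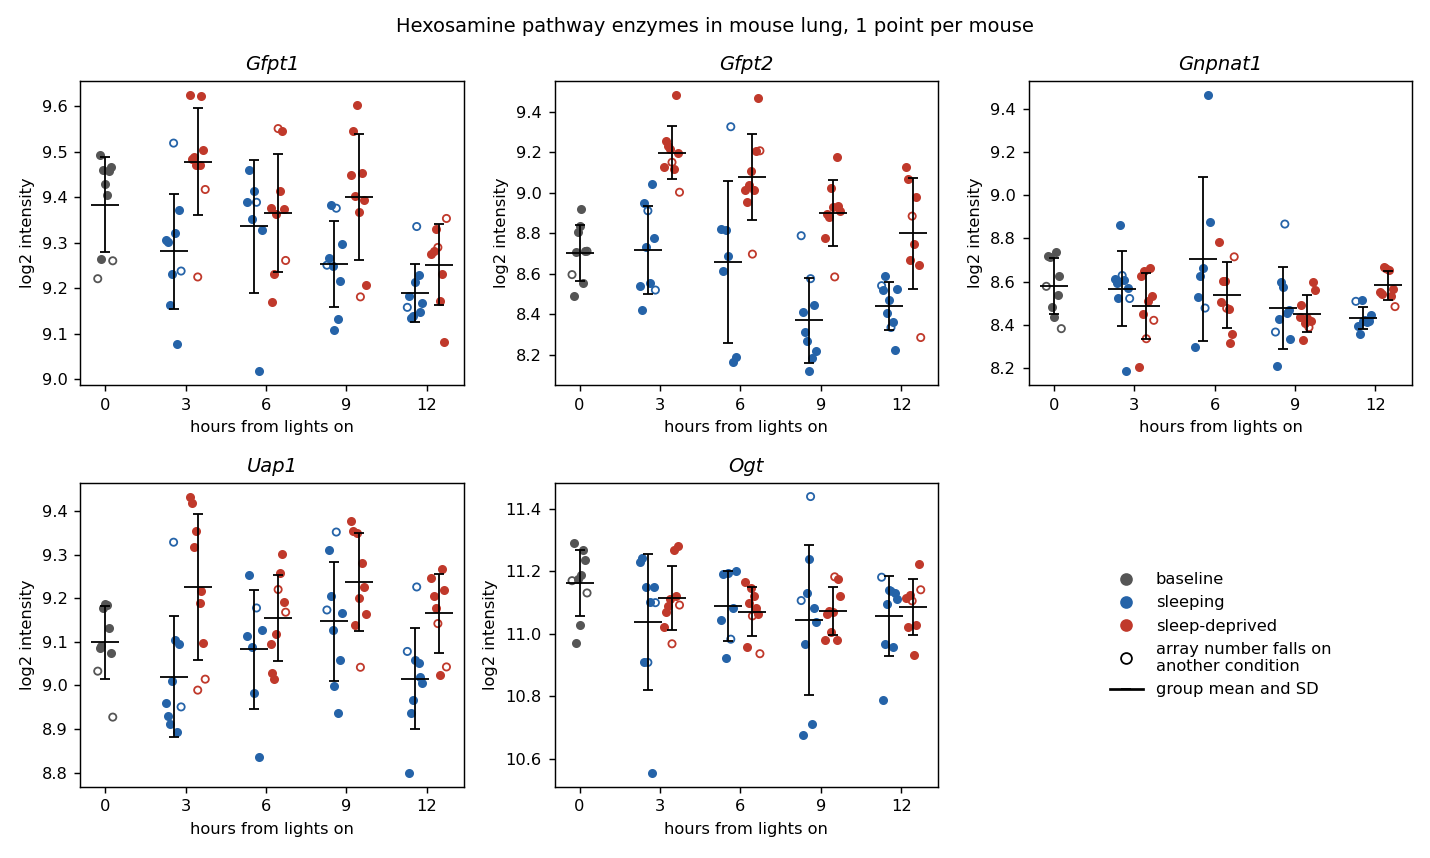
Log2 intensity of the 5 members (y) against hours from lights on (x), 1 point per mouse, with the group mean and SD in black and open points for the 16 arrays whose number falls on another condition. Gfpt2 of sleep-deprived mice sits between 9.00 and 9.48 at 3 h, when sleeping mice sit between 8.42 and 9.04, while Ogt means stay within 11.04 to 11.16.

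Gfpt2, the second form of the rate-limiting enzyme, had the largest difference between the states of the 5 members at each of the 4 hours. At 3 h the lowest, median and highest sleep-deprived mouse had 9.00, 9.20 and 9.48, against 8.42, 8.73 and 9.04 in sleeping mice. The groups met at their edges only, as 8 of 9 sleep-deprived mice lay above every sleeping mouse. The difference was 0.48 ± 0.10 (SE), or 1.40-fold, with an adjusted p of 0.000561 by limma, and 3.62% of all genes passed as higher at this hour. At 9 h sleep-deprived mice had 8.58, 8.91 and 9.18, and sleeping mice 8.12, 8.31 and 8.79. Here 7 of 9 sleep-deprived mice lay above every sleeping mouse. Gfpt2 was higher by 0.53 ± 0.10, or 1.45-fold (limma, adjusted p = 0.000981), when 0.797% of genes passed as higher. Both calls held in each of the 78 fits that left out 1 array, and the one at 9 h was lost with only the 9 h groups in the fit (adjusted p = 0.0150).

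At 6 and 12 h Gfpt2 had differences of a similar size that missed the threshold of 0.01. At 6 h the values were 8.70, 9.04 and 9.47 in sleep-deprived mice and 8.17, 8.69 and 9.33 in sleeping mice, and 1 of 9 sleep-deprived mice lay above every sleeping one. The difference was 0.42 ± 0.11 (limma, adjusted p = 0.0499), and 0.0319% of genes passed as higher. Its size rested on 3 sleeping mice. Array 66, 1 of the 16, had the 9.33 together with a fat marker level of 10.69 against a group median of 9.60. Over the 200 probe sets it was nearest to the sleep-deprived mice of 3 h. Without array 66 the difference was 0.53 (limma, adjusted p = 0.00277). Arrays 79 and 80 had the 2 lowest values, 8.17 and 8.19, with liver marker levels of 12.75 and 12.12 against a group median of 7.06. Without these 2 the difference was 0.23 (adjusted p = 0.869). At 12 h sleep-deprived mice had 8.29, 8.82 and 9.13 and sleeping mice 8.22, 8.47 and 8.59, with 7 of 8 above every sleeping mouse. The difference was 0.36 ± 0.10 (adjusted p = 0.132), when 0.0478% of genes passed as higher. The 8.29 is array 81, with a liver marker level of 11.07 against a group median of 6.25. Over the 200 probe sets it was nearest to the sleeping mice of 6 h. Without array 81 the difference was 0.43 (limma, adjusted p = 0.0276).

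Without the 16 arrays the Gfpt2 values of the 2 states did not overlap at any hour. The lowest sleep-deprived mouse was at 9.12 against 9.04 for the highest sleeping mouse at 3 h, and the same values were 8.95 and 8.82 for the mice of 6 h, 8.78 and 8.45 for those of 9 h and 8.65 and 8.59 for those of 12 h. Genes higher without overlap made up 2.35%, 1.83%, 1.53% and 0.802% of all genes at the 4 hours, and 0.0531%, or 10 genes, at all 4. The differences of Gfpt2 were then 0.52, 0.57, 0.66 and 0.43. Within the runs they were 0.48 and 0.48 at 3 h, 0.52 and 0.55 at 9 h and 0.28 and 0.45 at 12 h. At 6 h they were 0.11 in run 3 and 1.05 in run 4, where arrays 79 and 80 are the only sleeping mice.

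Against baseline mice, with 8.49, 8.71 and 8.92, Gfpt2 rose in sleep-deprived mice at 3 h by 0.49 ± 0.10 (limma, adjusted p = 0.00128), as did 0.999% of genes. After 3, 6, 9 and 12 h of sleep deprivation its mean stood 40.9%, 29.6%, 14.7% and 6.86% above the baseline mean. After the same hours of sleep it differed from baseline by 0.877%, -3.01%, -20.7% and -16.7%. All 8 comparisons share the 9 baseline mice. The difference in sleeping mice at 9 h was -0.33 ± 0.10 (adjusted p = 0.0303) and missed the threshold. No other member passed against baseline in any group, and Gfpt2 passed in none of the other 7, where the share of all genes that did, in either direction, was 0.335%, 15.5% and 5.39% for sleep deprivation of 6, 9 and 12 h and 0.0159%, 0.383%, 3.52% and 6.34% for sleep of 3, 6, 9 and 12 h.

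Gfpt1, the first form of the enzyme, moved less. At 3 h the sleep-deprived mice had 9.22, 9.48 and 9.62 and the sleeping mice 9.08, 9.30 and 9.52. The ranges overlapped widely, with 2 of 9 sleep-deprived mice above every sleeping mouse. The difference of 0.20 ± 0.05, or 1.15-fold, passed at an adjusted p of 0.00909 by limma and was lost in 14 of the 78 fits that left out 1 array. It also missed the threshold with only the 3 h groups in the fit (adjusted p = 0.0477) and with fat, cardiac and liver markers as covariates, where it was 0.13 (adjusted p = 0.222). Without the 16 arrays the groups did not overlap at 3 h, from 9.47 up in sleep-deprived and 9.37 down in sleeping mice. Genes higher without overlap made up 2.35% of all genes at this hour. At 6, 9 and 12 h the differences were 0.03, 0.15 and 0.06, with adjusted p of 0.941, 0.0730 and 0.941. Against baseline, where the median mouse had 9.43, sleeping mice at 12 h had a median of 9.17 and a difference of -0.19 ± 0.05 (adjusted p = 0.0138).

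Uap1 makes UDP-GlcNAc itself. At 3 h sleep-deprived mice had 8.99, 9.22 and 9.43 and sleeping mice 8.89, 8.96 and 9.33. The highest sleeping mouse, array 61, is 1 of the 16, and 5 of 9 sleeping mice lay below every sleep-deprived one. The difference was 0.21 ± 0.06, or 1.15-fold, and just missed the threshold (limma, adjusted p = 0.0113). It was 0.30 without the 16 arrays (adjusted p = 0.000116). It also passed with array medians subtracted (0.00701), with probe sets of low mean left out (0.00939) and with array weights (0.00187), and had an adjusted p of 0.106 with fat, cardiac and liver markers as covariates. With the fat level alone as a covariate it missed the threshold (limma, adjusted p = 0.021). Of the 78 fits that left out 1 array it passed in 8, and the highest adjusted p (limma) was 0.0372. At 6, 9 and 12 h the differences were 0.07, 0.09 and 0.15, with adjusted p from 0.345 to 0.787.

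**Figure D2:**
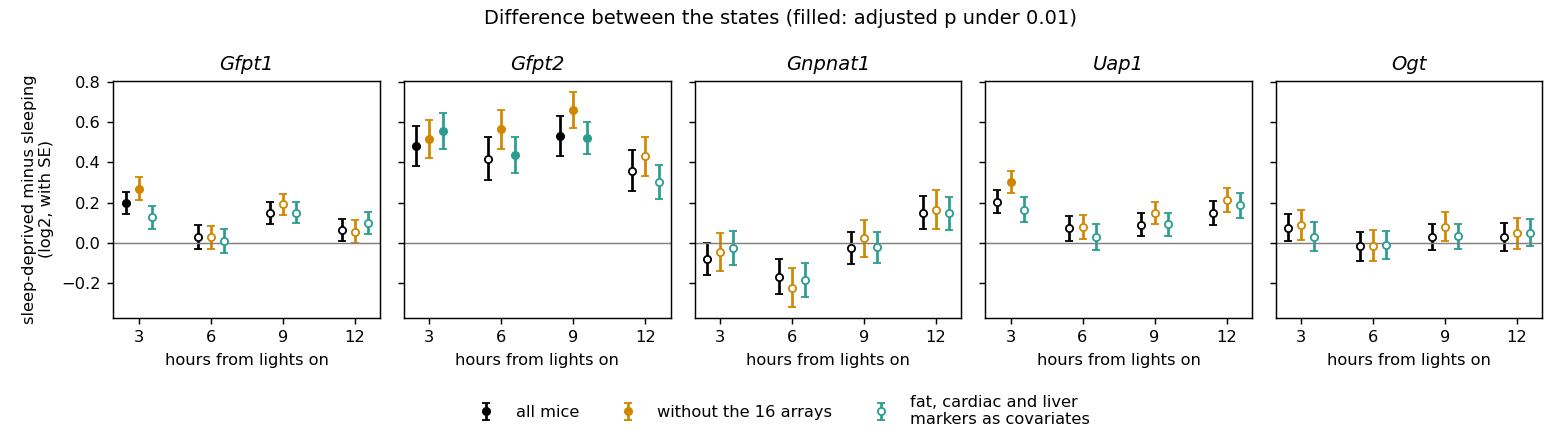
Difference between sleep-deprived and sleeping mice (y, log2, with SE) against hours from lights on (x) for the 5 members, in all mice, without the 16 arrays and with fat, cardiac and liver marker levels as covariates. Filled points have an adjusted p under 0.01. Gfpt2 lies above 0 at every hour in all 3 settings, from 0.30 to 0.66, and Ogt stays near 0.

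Gnpnat1, the acetyltransferase between the 2 steps, did not pass at any hour. The differences were -0.08, -0.17, -0.03 and 0.15 at 3, 6, 9 and 12 h, each with an SE of 0.08 or 0.09. The 12 h mice nearly parted, at 8.48, 8.56 and 8.67 in sleep-deprived and 8.36, 8.42 and 8.52 in sleeping mice, yet the adjusted p was 0.740. Without the 16 arrays they did not overlap, from 8.53 up in sleep-deprived and 8.52 down in sleeping mice. Genes higher without overlap made up 0.802% of all genes at 12 h. At 6 h the sleeping mice spread from 8.30 to 9.47, and the 9.47 and the next value of 8.88 are arrays 79 and 80, those with the high liver markers. The place of the probe set on the array also stood out. None of its 8 neighbours in ID order belong to chromosome 14, where the gene lies, while 7 or 8 of 8 do for the other members. A probe set annotated to both Styx and Gnpnat1 has 7 of 8 neighbours there, and its differences were -0.03, -0.15, -0.00 and 0.14. Which of the 2 reports Gnpnat1 was not tested.

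Ogt, which uses the product, was the most stable member across groups. Its group means ranged over 0.12, at percentile 12.0 of all genes, from 11.04 in sleeping mice at 3 h to 11.16 at baseline. Its differences between the states were 0.07, -0.02, 0.03 and 0.03, each with an SE of 0.07, and the adjusted p ran from 0.516 to 0.993. The group means of Gfpt2 ranged over 0.83, those of Gfpt1 over 0.29, those of Gnpnat1 over 0.27 and those of Uap1 over 0.22.

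Over all hours, as a description, sleep-deprived mice differed from sleeping mice by 0.46 for Gfpt2, 0.13 for Uap1, 0.12 for Gfpt1, 0.03 for Ogt and -0.02 for Gnpnat1. The median difference of the 5 members was 0.20, 0.03, 0.09 and 0.15 at 3, 6, 9 and 12 h, beside 0.01, 0.02, -0.01 and -0.01 over all genes. From baseline through 12 h of sleep the slope was -0.35 per 12 h for Gfpt2 and -0.17 for Gfpt1. The slope of Gfpt2 turned to 0.11 with the 4 runs as a block. Whether the difference between the states changed over the hours was tested for each member, and 0 of 5 passed (limma, adjusted p from 0.322 to 0.916), beside 0.0691% of all genes. Unequal spread over baseline and the 4 sleeping groups was tested by Bartlett's and the Brown-Forsythe test, and 0 of 5 passed both, beside 0.143% of genes.

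Gfpt2 was also set against Gfpt1 in the same mouse, which removes what both share on an array. The difference of Gfpt2 minus Gfpt1 averaged -0.28 in sleep-deprived and -0.56 in sleeping mice at 3 h, -0.29 and -0.68 at 6 h, -0.50 and -0.88 at 9 h and -0.45 and -0.75 at 12 h. It was therefore higher in sleep-deprived mice by 0.28 ± 0.10, 0.39 ± 0.16, 0.38 ± 0.08 and 0.30 ± 0.12 (SE). Two-sided exact permutation tests over mice, adjusted over the 4 hours, gave p = 0.0217, 0.0217, 0.00214 and 0.0217. Without the 16 arrays the shift at 3 h was 0.25 and missed the 0.05 level (exact permutation, adjusted p = 0.0752), while the other 3 hours had 0.54, 0.47 and 0.37, with adjusted p of 0.00117, 0.000622 and 0.00466.

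**Figure D3:**
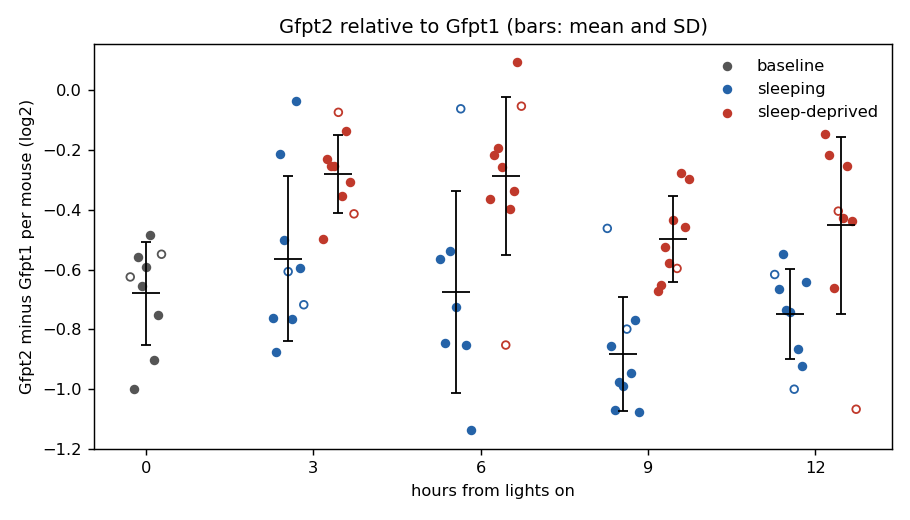
Gfpt2 minus Gfpt1 in each mouse (y, log2) against hours from lights on (x), with the group mean and SD in black and open points for the 16 arrays. The mean of sleep-deprived mice lies above that of sleeping mice at each hour, by 0.28, 0.39, 0.38 and 0.30.

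Variation among mice of the same group linked some members. Deviations from the group mean were correlated over 78 mice for the 10 pairs of members and for each member with the mean level of each of 12 marker lists, 70 relations in all, with 100000 permutations and p adjusted over all of them. Gfpt1 and Uap1 moved together, with Pearson r = 0.69 and Spearman rho = 0.64 (each permutation p = 1e-05, the smallest they can give, adjusted 0.00014). The r was 0.65 without the 2 farthest mice, 0.50, 0.74, 0.74 and 0.75 within the 4 runs and 0.62 without the 16 arrays. Uap1 still ranked 118th among all genes in likeness to Gfpt1. Gnpnat1 and Ogt had r = 0.41 and rho = 0.40 (permutation, adjusted p = 0.00315 and 0.00238), with 0.43 without the 2 farthest and 0.67, 0.58, 0.36 and 0.33 within runs. Ogt ranked 725th among all genes in likeness to Gnpnat1. Gfpt1 and Gfpt2 had r = 0.18 and rho = 0.14 (permutation, adjusted p = 0.195 and 0.339). Gfpt2 and Uap1 had r = 0.32 and rho = 0.31 (adjusted p = 0.0175 and 0.0217), with 0.29 without the 2 farthest mice, 0.33, 0.43, 0.27 and 0.30 within the 4 runs and 0.19 without the 16 arrays. Uap1 ranked 1922nd among all genes in likeness to Gfpt2. Gfpt2 ran against Ogt, with r = -0.28 and rho = -0.34 (permutation, adjusted p = 0.0368 and 0.0107). The r was -0.19, 0.16, -0.48 and -0.44 within the 4 runs and -0.42 without the 16 arrays. Gfpt2 and Gnpnat1 had r = -0.30 and rho = -0.16 (permutation, adjusted p = 0.0275 and 0.309). Their r was -0.22, 0.45, -0.24 and -0.63 within the 4 runs.

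Gfpt2 moved with the fat markers within groups. Its r with the mean of the 5 fat genes was 0.58 and its rho 0.59 (permutation p = 1e-05, adjusted 0.00014), with 0.56 without the 2 farthest mice, 0.53, 0.31, 0.55 and 0.79 within the 4 runs and 0.71 without the 16 arrays. Between the states the fat level was lower in sleep-deprived mice at 3 and 6 h and higher at 9 and 12 h by its medians. At 3 h the fat markers had a median of 7.34 in sleep-deprived and 8.93 in sleeping mice, at 6 h 8.62 and 9.60, at 9 h 8.47 and 7.77 and at 12 h 9.31 and 7.58, and 0 of 5 passed at any hour (limma). With the fat level as a covariate Gfpt2 was higher by 0.58, 0.50, 0.52 and 0.27 at the 4 hours, with adjusted p of 1.23e-06, 0.00380, 9.16e-05 and 0.182. With the fat, cardiac and liver levels as covariates it was higher by 0.55, 0.44, 0.52 and 0.30 (limma, adjusted p = 2.54e-05, 0.00592, 6.08e-05 and 0.0881). These covariate fits were chosen after seeing the data, and the part of fat in the result for Gfpt2 was not tested. Gfpt2 moved with muscle markers too. Its r with the mean of 3 cardiac genes was 0.49 and its rho 0.48 (permutation, adjusted p = 0.00014 for each), with 0.45 without the 2 farthest, 0.58, 0.78, 0.48 and 0.44 within runs and 0.52 without the 16 arrays. With the mean of 4 smooth muscle genes it had r = 0.43 and rho = 0.44 (adjusted p = 0.0012 and 0.000467), with 0.44 without the 2 farthest, 0.68, 0.61, 0.34 and 0.18 within runs and 0.29 without the 16 arrays. Among all genes in likeness to Gfpt2 the fat mean ranked 140th, the cardiac mean 507th and the smooth muscle mean 913th. The 4 smooth muscle markers were also higher in sleep-deprived mice by their median, at 0.09, 0.08, 0.17 and 0.30 at the 4 hours. Myh11, 1 of the 4, did not follow throughout, with -0.01, -0.09, 0.11 and 0.04. Of the 4 genes 1 passed at 9 h and the same gene at 12 h, Acta2, the smooth muscle actin, at 0.19 and 0.30 (limma, adjusted p = 0.00631 and 0.000512). Their mean lay between 10.70 and 11.07 in sleep-deprived and between 10.63 and 11.06 in sleeping mice at 9 h, and between 10.73 and 11.13 and between 10.64 and 10.86 at 12 h. Of the cardiac markers 0 of 3 passed at any hour. With the mean of 6 fibroblast and matrix genes Gfpt2 had r = 0.37 and rho = 0.41 (permutation, adjusted p = 0.00617 and 0.00238). The r was 0.24, 0.20, 0.35 and 0.68 within runs and 0.55 without the 16 arrays. Of this list Pdgfra passed as higher at 9 h, at 0.23 (limma, adjusted p = 0.0069), while Lum had -0.54. Among all genes in likeness to Gfpt2 the fibroblast mean ranked 1384th.

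Among blood cells, markers of B cells and of T cells moved against Gfpt2 between the states at 3, 6 and 9 h by their medians. The 3 measured markers of B cells all fell at 3 and at 9 h of sleep deprivation, with median differences of -0.99 and -0.98. Their mean lay between 8.00 and 9.06 in sleep-deprived and between 9.45 and 10.17 in sleeping mice at 3 h, and between 7.99 and 8.83 and between 7.86 and 10.24 at 9 h. The 4 markers of T cells had median differences of -0.35, -0.32, -0.73 and 0.04 at 3, 6, 9 and 12 h. Cd3e alone of these passed, at 9 h, by -0.87 ± 0.22 (limma, adjusted p = 0.0075). At 12 h array 27, a sleep-deprived mouse, had a T cell marker level of 9.53 against a group median of 6.15. The median T cell level of the sleeping mice of 12 h was 6.51. Of 3 markers of neutrophils and monocytes 2 fell at 3 h. The part of blood cells, of smooth muscle and of fibroblasts in the result for Gfpt2 was not tested.

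Gfpt1 moved with the lung endothelium within groups. Its r with the mean of 4 endothelial genes was 0.58 and its rho 0.54 (permutation, adjusted p = 0.00014 for each), with 0.52 without the 2 farthest mice, 0.50, 0.62, 0.50 and 0.70 within the 4 runs and 0.62 without the 16 arrays. At 3 h, the hour at which Gfpt1 passed, the endothelial mean lay between 12.02 and 12.16 in sleep-deprived and between 11.88 and 12.13 in sleeping mice. Of the 4 genes 1 passed there as higher, Pecam1, an adhesion molecule of endothelial cells, at 0.11 ± 0.03 (limma, adjusted p = 0.00773). The part of these genes in the result for Gfpt1 was not tested. Among all genes in likeness to Gfpt1 the endothelial mean ranked 690th. Gfpt1 and Uap1 both ran against the club cell markers of the airway, with r = -0.47 and -0.54 (permutation, adjusted p = 0.000467 and 0.00014), rho = -0.43 and -0.52 (adjusted p = 0.001 and 0.00014) and -0.53 for both without the 2 farthest mice. Within the 4 runs the r was -0.59, -0.57, -0.62 and 0.17 for Gfpt1 and -0.63, -0.45, -0.67 and -0.42 for Uap1.

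**Figure D4:**
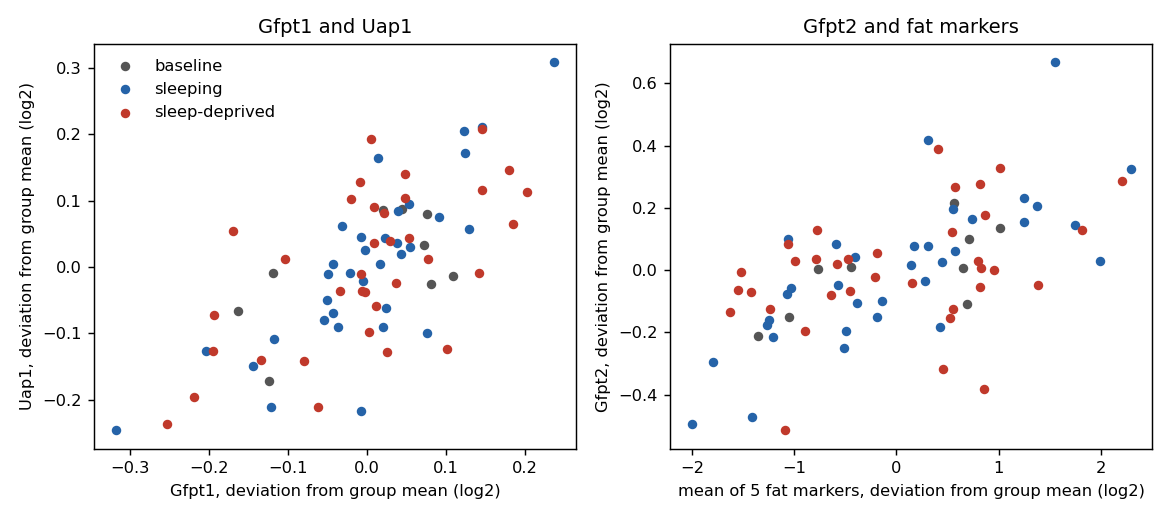
Deviations from the group mean in each of 78 mice, Uap1 against Gfpt1 on the left and Gfpt2 against the mean of 5 fat markers on the right, all in log2 units and coloured by state. Pearson r is 0.69 on the left and 0.58 on the right.

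The genes most like each member, given as a description, differed between the forms of the enzyme. Over deviations within groups Gfpt2 was closest to Pdk4 (r = 0.80), a kinase that turns off pyruvate dehydrogenase, then to Lipe (0.72), the hormone-sensitive lipase, Ppp1r3a (0.71), Plin4 (0.70), a lipid droplet protein, and Kcnj8 (0.70). Gfpt1 was closest to Galc (0.81), a lysosomal galactosidase, Stt3a (0.80), a catalytic subunit that transfers glycans to proteins, Golt1b (0.79), Rtn4 (0.79) and Slc37a3 (0.79). Uap1 was closest to Sars (0.80), a transfer RNA synthetase, Plrg1 (0.79) and again Golt1b (0.79). Gnpnat1 was closest to Glo1 (0.73) and Il1rap (0.70), and Ogt to Lyst (0.87) and Zfp182 (0.87). Over the 9 group means, among 5632 genes whose means range over at least 0.3, Gfpt2 was closest to Kcne2 (0.98), Bicd2 (0.97) and Mmp3 (0.97), and Gfpt1 to Eef1e1 (0.97) and Pinx1 (0.96).

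Genes around the members were taken from 7 lists of 93 genes chosen with earlier results known, of which 82 had a probe set of their own. At 3 h 8 of the 82 passed as higher and 4 as lower, beside 3.62% and 3.74% of all genes. Of the 4 measured enzymes that salvage GlcNAc or return it to glycolysis, 2 were lower in sleep-deprived mice. Gnpda2, which turns glucosamine 6-phosphate back into fructose 6-phosphate, fell by 0.33 ± 0.07 (limma, adjusted p = 0.00129), and Amdhd2, which removes the acetyl group, fell by 0.23 ± 0.06 (adjusted p = 0.00500). With the 16 arrays left out 1 of the 4 passed. The median of this list was -0.21 beside 0.01 over all genes. Of 7 other enzymes listed on the way to UDP-GlcNAc the 4 measured (Hk1, Hk2, Hk3 and Uap1l1) had a median of -0.16 and none passed. Oga, which removes what Ogt adds, had 0.17 (adjusted p = 0.0431), and Eogt, which glycosylates proteins in the endoplasmic reticulum, had 0.16 (adjusted p = 0.0268).

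Among 18 users of UDP-GlcNAc 2 rose at 3 h. Piga, of the first step of the glycolipid anchor, was higher by 0.48 ± 0.09 (limma, adjusted p = 7.1e-05) and Has1, a hyaluronan synthase, by 0.42 ± 0.08 (adjusted p = 0.000388). Has2 had 0.20 over all hours. Of 32 genes that build and transfer N-glycans 4 rose and 1 fell. Those that rose were Magt1 (0.40), Ostc (0.22) and Rpn1 (0.18), all of the oligosaccharyltransferase, and Uggt1 (0.18), which tests the folding of glycoproteins, with adjusted p of 0.000379, 0.000711, 0.000271 and 0.000221. Mpdu1, needed to use dolichol-linked sugars, fell by 0.33 ± 0.06 (adjusted p = 0.000130). Uggt1 also rose at 9 h, by 0.15 ± 0.03 (adjusted p = 0.00378). Alg8 had 0.15 over all hours. Of 13 genes of sialic acid and other sugar nucleotides Mpi fell by 0.25 ± 0.07 (adjusted p = 0.00988), and Galt had -0.11 over all hours.

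Of 9 regulators, 2 of the unfolded protein response rose at 3 h. Hspa5, the main chaperone of the endoplasmic reticulum, was higher by 0.60 ± 0.07 (limma, adjusted p = 2.64e-08), more than Gfpt2 at that hour, and Xbp1 by 0.20 ± 0.05 (adjusted p = 0.00127). Atf4 had 0.13 (limma, adjusted p = 0.0345) and Sp1, which binds GC boxes, had -0.01, and neither passed. The median of the 9 regulators at 3 h was 0.06 beside 0.01 over all genes, with a range from -0.48 to 0.60. At 6 h the range was from -1.04 to 0.16. At 6 and 12 h 0 of the 82 genes passed by limma, and at 9 h Uggt1 alone did. With the 16 arrays left out 12, 6, 6 and 1 of the 82 passed in either direction at 3, 6, 9 and 12 h, beside 9.0%, 3.92%, 7.13% and 0.675% of all genes in the same fit.

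**Figure D5:**
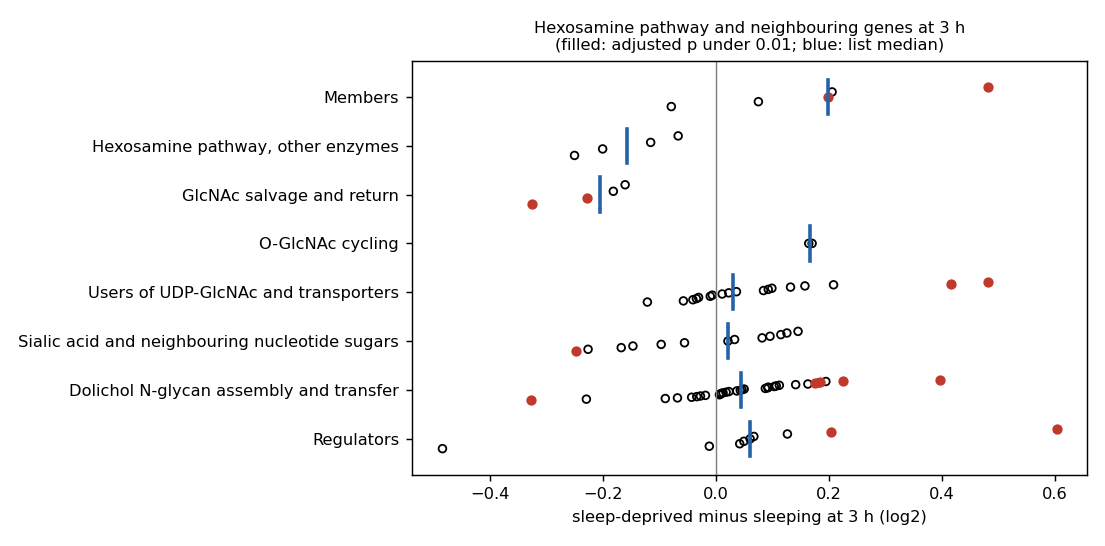
Difference between sleep-deprived and sleeping mice at 3 h (x, log2) for each measured gene of the members and of the 7 lists (rows), filled where the adjusted p is under 0.01, with the list median in blue. The 2 filled members lie at 0.20 and 0.48, and the salvage enzymes lie to the left of 0 with a median of -0.21.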

How the data were processed

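The authors normalised the arrays with RMA in R and deposited log2 intensities of 35556 probe sets, per the labels and the study's methods. The deposited values lacked their decimal point. It was restored so that a leading 1 opens a number of 10 or more and any other first digit stands alone, giving values between 2.27 and 13.85. Genes were named through the platform's annotation, where 21218 probe sets have 1 symbol. The members and gene lists were chosen with earlier results of these data known. limma 3.58.1 (R 4.3.3) fitted the 9 group means, with Benjamini-Hochberg adjustment over all probe sets and a threshold of 0.01, and was tested on simulated data. Exact permutation tests were two-sided. The number of arrays limits the precision. Named were all members and the genes most correlated with a member. Listed genes were named that passed between the states at any hour or over all hours (at most 6 per list, by adjusted p). The listed genes Oga, Eogt, Hk1, Hk2, Hk3, Uap1l1, Atf4 and Sp1 were also named, though they did not pass at 3 h. Alternatives covered the arrays entered, runs as a block, scaling, filter, array weights, prior variance and threshold. Covariate fits, the fit without arrays 79 and 80, the Styx/Gnpnat1 probe set and the correlations with marker lists were chosen after seeing the data. The markers Acta2, Myh11, Pecam1, Cd3e, Pdgfra and Lum were also named after seeing the data.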

Additional observations from a re-analysis of the deposited data

Results flagged for a closer look

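Of 45 sets of values, 1 for each member and group, 5 held a mouse far from the rest of its group, and chance marks about 1 in 20 of such sets. In sleeping mice at 3 h array 76 had the lowest Ogt, 10.55 against 10.91 for the next, and the lowest Gnpnat1, 8.18 against 8.52, and the highest fat marker level of the 78 arrays, 11.08. Array 61 of the same group had the highest Uap1, 9.33 against 9.10. In sleeping mice at 6 h array 79, with a liver marker level of 12.75, had the lowest Gfpt1, 9.02 against 9.33. In sleeping mice at 12 h array 32 had the highest Gfpt1, 9.34 against 9.23. Arrays 32 and 61 are among the 16 whose number falls on another condition.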

How the results depend on the processing

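Of 320 tested member values under another setting 285 kept their direction and side of the threshold, 18 came past it, 4 lost it and 13 changed sign. The cause was not tested. As fitted, 2, 0, 1 and 0 members passed between the states at 3, 6, 9 and 12 h. The 5 members in 8 groups gave 1 call against baseline. Without the 16 arrays 1 member passed at 6 h and there were 4 calls against baseline, 3 of Gfpt2 and 1 of Gfpt1. With array weights 1 member passed at 12 h and there were 4 calls against baseline. At a threshold of 0.05, 1 member passed at 6 h and there were 3 calls against baseline, 2 of Gfpt2 and 1 of Gfpt1. With 5 runs as a block 1 passed at 6 h, and with array medians subtracted or a mean of at least 6 required there were 2 calls against baseline. With only the groups compared 1 passed at 3 h and 0 at 9 h. With the fat level, or the fat, cardiac and liver levels, as covariates 1 passed at 3 h and 1 at 6 h. Leaving out each array in turn gave 1 to 3 members at 3 h, 0 to 1 at 6 h, 1 to 1 at 9 h, 0 to 0 at 12 h, 0 to 0 for a change over the hours and 1 to 2 calls against baseline.

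Gfpt2 minus Gfpt1 no longer passed 0.05 (exact permutation) without the 16 arrays at 3 h (0.25), by medians at 6 h (0.47), and within runs, where 4 against 2 mice cannot go below 0.0667, at 3 h (0.33 and 0.23), 6 h (0.17 and 0.82) and 12 h (0.14). Leaving out each array gave 0.25 to 0.35 at 3 h, 0.31 to 0.49 at 6 h, 0.36 to 0.44 at 9 h and 0.25 to 0.38 at 12 h.

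The values that changed sign were, without the 16 arrays, Gnpnat1 at 9 h (0.0215) and Gfpt2 in mice asleep for 3 h against baseline (-0.00148). The slope of Gfpt2 over sleep, a value with no test, was 0.11 with a block for each of 4 runs and -0.57 with a common intercept. With 5 runs they were Ogt at 6 h (0.0141), Gfpt1 after 6 h awake against baseline (0.0299) and Gfpt2 after 3 h asleep (-0.0160). With array medians subtracted it was Ogt at 9 h (-0.000792). With array weights they were Gfpt1 at 6 h (-0.0118), Ogt at 9 h (-0.00691), Gfpt1 after 9 h awake (-0.00873) and Gfpt2 after 3 h asleep (-0.0556). Without arrays 79 and 80 they were Gnpnat1 (0.0189), Gfpt1 (-0.0355) and Ogt (0.00302) at 6 h.

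Baseline against 9 and 12 h could not be fitted with runs as a block, and no member had a further probe set annotated to it alone. No paired analysis was possible because each array number occurs once.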
